A study of Homo sapiens with 6 samples.

Results

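Among the transcripts of Kasumi-1 cells, 9 genes that answer to low oxygen without belonging to glycolysis were followed here: BNIP3, BNIP3L, ANKRD37, NDRG1, P4HA1, P4HA2, ADM, KDM3A and BHLHE40. They were chosen by symbol, with earlier results of these data known. All 9 were found among the 29810 genes of the deposited expression table, each under 1 Ensembl identifier. Kasumi-1 is a human acute myeloid leukaemia line that carries the RUNX1::RUNX1T1 fusion. Cells that received I3, an inhibitor of histone deacetylases, at 0.25 µM for 48 h (3 libraries) were compared with control cells (3 libraries), which per the study's methods received the solvent DMSO. Every library came from this 1 cell line, and the labels do not say whether the 3 libraries of a group were separate cultures, so that the p-values below measure the spread between these libraries, which may be technical. The pattern of the 9 genes lay in the libraries more than in the groups: 1 control library, control 1, held the highest level of each of the 9, and no member passed the test of I3 against control.

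Cells sense oxygen through the hypoxia-inducible factors (HIF). Where oxygen is plentiful, prolyl hydroxylases of the EGLN family mark the alpha subunit, VHL binds it and the proteasome removes it. Where oxygen is short, the alpha subunit persists, pairs with ARNT and binds a short core sequence near its target genes. The best known targets raise glycolysis, and the genes followed here belong to other arms of the response, namely the removal of mitochondria, the maturation of collagen, chromatin and transcription, and signalling to other cells.

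The letters that HIF binds, ACGTG or GCGTG, were looked for on both strands of the 300 bases around each RefSeq start site (250 before it and 50 from it onwards, GRCh38.p14). RefSeq windows were matched for 7 of the 9 genes, and those of BNIP3L and NDRG1 were not analysed here. Either form was found in 6 of 7 genes (85.7%) against 52.4% of 27305 genes with a window. ACGTG alone was found in 4 of 7 (24.9% of all genes), and CACGTG, which holds ACGTG on both strands, in 3 of 7 (8.77% of all genes). Other HIF targets had such matches too. Outside glycolysis, 25 of 29 genes held either form, 20 of 29 ACGTG and 6 of 29 CACGTG. Among glycolytic targets the counts were 19, 13 and 6 of 20. The matches are thus not particular to the genes followed here. The window of BNIP3 held 6 matches, BHLHE40 held 4, ANKRD37 held 3, and P4HA1, ADM and KDM3A each held 1, whereas P4HA2 held 0. The stretches below show how differently these matches are spaced in genes that were all highest in control 1. They are written 5′ to 3′ on the strand of the gene, with each match on either strand in capitals. In BNIP3 the stretch is the part of the upstream window outside annotated exons (chr10:131982014-131982173, minus strand), and in the other genes it is 30 bases at the matches, where GENCODE 29 annotates an exon of at least 1 transcript.
BNIP3: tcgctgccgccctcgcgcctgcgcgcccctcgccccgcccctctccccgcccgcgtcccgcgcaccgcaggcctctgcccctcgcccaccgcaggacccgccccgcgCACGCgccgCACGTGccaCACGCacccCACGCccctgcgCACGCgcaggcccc
BHLHE40, chr3:4979187-4979216, plus strand: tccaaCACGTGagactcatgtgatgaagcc
BHLHE40, chr3:4979263-4979292, plus strand: ACGTGcctggagtcacagggtagaaCACGT
ANKRD37, chr4:185396676-185396705, plus strand: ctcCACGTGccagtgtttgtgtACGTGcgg
P4HA1, chr10:73096935-73096964, minus strand: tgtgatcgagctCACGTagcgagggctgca
ADM, chr11:10304960-10304989, plus strand: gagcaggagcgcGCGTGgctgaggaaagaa
KDM3A, chr2:86441333-86441362, plus strand: ccgggaggctgtGCGTGtcttgtgagagct
A match describes the letters in these windows. In the BNIP3 stretch 1 CACGTG stands among 4 GCGTG matches, which read on the strand opposite to the gene and are printed as CACGC, and their first printed bases lie 143 to 104 bases before the start, while the single match of P4HA1 begins 86 bases before it.

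Depth was similar, at 17500320 to 18193373 reads per library. The 8 marker genes of Kasumi-1 were present in every library, with a sum of 8651 to 9621 FPKM (fragments per kilobase of exon, scaled to the mapped fragments of a library), most of it MPO, the myeloperoxidase of granules. Of 8 markers of other cell types, 1 to 4 were at 0 in a library, and their sum was 30.6 to 33.7 FPKM, of which EPCAM made up 28.2 to 31.6. Control 1 stood further from the other controls than these did from each other, with a mean chi-square per gene of 15.4 and 10.9 against control 2 and 3, and 4.64 between control 2 and 3. Pairs of I3 libraries lay between, at 8.90 for I3 1 and 2, 6.89 for I3 1 and 3 and 9.69 for I3 2 and 3. The value of control 1 against control 3 was thus only slightly above that of an I3 pair. The libraries also differed in how their levels followed the GC content of a gene, with a rank correlation of -0.313 in control 1, 0.446 in control 2, 0.337 in control 3, and -0.232, 0.262 and -0.446 in I3 1, 2 and 3. The fold changes of the members are therefore also given without control 1, and the differences of single libraries also with the GC trend removed for the genes tested.

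**Figure D1:**
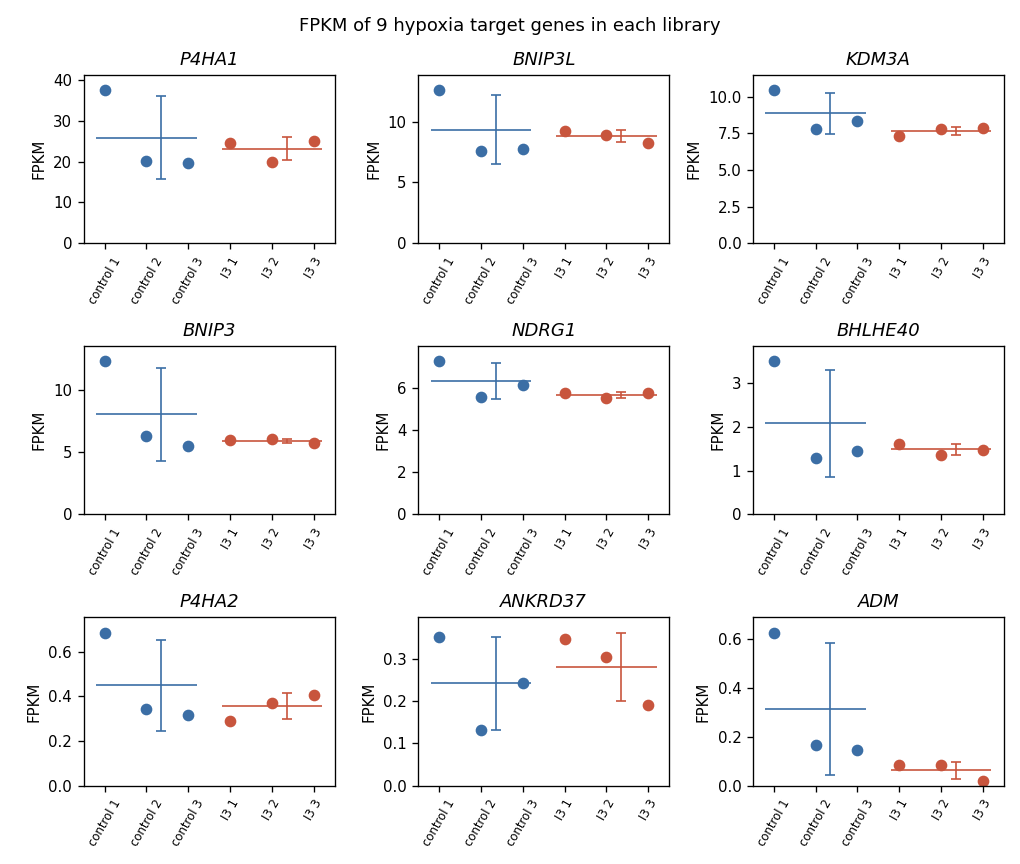
FPKM (linear axis from 0) of each of the 9 genes in the 3 control libraries (blue) and the 3 I3 libraries (red). Points are libraries, horizontal lines are group means and bars are ±1 SD (n = 3). The control 1 point is the highest of each panel, from 37.6 FPKM for P4HA1 to 0.351 FPKM for ANKRD37, where I3 1 lies just under it at 0.348 FPKM.

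The mitophagy receptors were higher in control 1 than in the 5 other libraries. BNIP3 (ENSG00000176171, chr10:131966455-131982013, minus strand), a protein of the outer mitochondrial membrane that tethers damaged mitochondria to the autophagy machinery, was at 12.3, 6.31 and 5.47 FPKM in control 1, 2 and 3 and at 5.93, 6.03 and 5.73 FPKM in I3 1, 2 and 3. The 5 libraries other than control 1 thus lay close together, with the I3 libraries inside the range of the controls. The group means were 8.02 ± 3.72 FPKM in the controls and 5.90 ± 0.152 FPKM with I3 (SD, n = 3 each), and the log2 fold change of I3 against control was -0.33 (95% interval -0.94 to 0.28, limma adjusted p = 0.998). Without control 1 it was 0.0039, and the ratio of reads, I3 against the remaining controls, was 1.00 (95% exact binomial interval 0.927 to 1.08, which covers counting error only).

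BNIP3L (ENSG00000104765, chr8:26382898-26505636, plus strand), the close relative also called NIX that clears mitochondria from maturing red cells, was at 12.6, 7.59 and 7.79 FPKM in the controls and 9.21, 8.92 and 8.23 FPKM with I3. Control 1 was again highest, but the other controls were here the lowest libraries, below each I3 library. The log2 fold change was -0.05 (SE 0.179, limma adjusted p = 0.998) and turned to 0.18 without control 1 (limma adjusted p = 0.448), where the read ratio was 1.14 (95% exact binomial interval 1.06 to 1.23). Other mitophagy receptors had no such gap at control 1. FUNDC1 was at 8.94 FPKM there and 6.74 to 8.64 FPKM elsewhere, FKBP8 at 91.7 FPKM against 88.5 to 100.2 FPKM, and PHB2 was lowest in control 1 at 137 FPKM. PINK1, the kinase of the other main mitophagy route, was at 0.364 to 0.685 FPKM. RHEB, a GTPase with a role at BNIP3 and in growth signalling, was at 20.1 to 21.9 FPKM throughout.

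The collagen prolyl hydroxylases P4HA1 and P4HA2 were also highest in control 1, at very different levels. P4HA1 (ENSG00000122884, chr10:73007217-73096974, minus strand), a catalytic subunit of the prolyl 4-hydroxylase that stabilises the collagen helix, was the most abundant member, at 37.6, 20.3 and 19.7 FPKM in the controls and 24.6, 20.02 and 25.04 FPKM with I3. Control 1 was far above the rest, and among the I3 libraries I3 2 was low and level with control 2 and 3. Its log2 fold change of -0.09 (SE 0.238, limma adjusted p = 0.998) turned to 0.20 without control 1 and to 0.0074 without I3 2, which had 0.807 times the reads of the other I3 libraries (95% exact binomial interval 0.752 to 0.866).

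P4HA2 (ENSG00000072682, chr5:132191838-132295315, minus strand), the second catalytic subunit, was under the minimum of a mean of 0.5 FPKM, at 0.686, 0.344 and 0.316 FPKM in the controls and 0.290, 0.370 and 0.407 FPKM with I3. The reads behind them numbered 103, 52 and 47 in the controls against 44, 56 and 63 with I3, so that control 1 had about as many reads as the other controls together while the I3 libraries lay around them. In a fit with no minimum the log2 fold change was -0.13 (SE 0.179) and 0.04 without control 1. P4HB, the shared beta subunit of both enzymes, was at 292 to 325 FPKM with control 1 inside that range, and P4HA3, the remaining catalytic subunit, was at 0.056 FPKM or less.

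The regulators of chromatin and transcription were also highest in control 1, BHLHE40 by more than KDM3A. KDM3A (ENSG00000115548, chr2:86440647-86492716, plus strand), which removes methyl groups from lysine 9 of histone H3, was at 10.5, 7.79 and 8.34 FPKM in the controls and 7.34, 7.77 and 7.85 FPKM with I3. Control 1 was highest, I3 1 was lowest, and the other 4 libraries lay between them with the groups overlapping by a narrow margin. I3 against control gave a log2 fold change of -0.19 (95% interval -0.44 to 0.06, limma adjusted p = 0.998), and -0.07 without control 1. Its paralogues did not have control 1 on top to this extent. KDM3B was at 23.4 FPKM in control 1 and 25.3 to 26.7 FPKM elsewhere, and JMJD1C at 21.7 FPKM in control 1 and 21.6 FPKM in I3 3. The log2 fold change of JMJD1C was 0.10 with all libraries and 0.18 without control 1. Control 1 thus lay above the mean of the other controls for JMJD1C too.

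BHLHE40 (ENSG00000134107, chr3:4979116-4985323, plus strand), a basic helix-loop-helix repressor of the circadian clock and of stress responses, was at 3.50, 1.29 and 1.44 FPKM in the controls and 1.61, 1.36 and 1.48 FPKM with I3. Control 1 gave 237 reads of it, and the 5 other libraries lay close together at 88 to 110 reads. The log2 fold change was -0.28 (95% interval -0.96 to 0.40, limma adjusted p = 0.998), and 0.09 without control 1. BHLHE41, its paralogue, was at 0.043 FPKM or less.

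NDRG1 (ENSG00000104419, chr8:133237171-133302022, minus strand), a cytoplasmic protein of stress and differentiation, had the smallest excess, at 7.24, 5.57 and 6.14 FPKM in the controls and 5.74, 5.5 and 5.72 FPKM with I3. Control 1 was highest and control 3 next, while control 2 lay among the I3 libraries. NDRG1 had a log2 fold change of -0.14 (SE 0.0971, limma adjusted p = 0.998), and -0.04 without control 1. NDRG3, the paralogue with a level in these cells, was lowest in control 1, at 16.5 FPKM against 17.4 to 18.9 FPKM.

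ADM (ENSG00000148926, chr11:10304680-10307397, plus strand), which encodes the vasodilator peptide adrenomedullin, was the only member whose groups did not overlap, and it rested on few reads. It was at 0.625, 0.165 and 0.147 FPKM in the controls and 0.0826, 0.0827 and 0.0202 FPKM with I3, from 30, 8 and 7 reads and from 4, 4 and 1 reads. Every control was above every I3 library, though control 3 had 7 reads against 4 in the highest I3 libraries. Groups did not overlap in 9.7% of all genes tested either, so that a single such member is no result about the members. The two-sided exact permutation p was 0.1, the smallest that 3 against 3 allow. In the fit with no minimum the log2 fold change on log2(FPKM + 0.5) was -0.49 (95% interval -1.13 to 0.16, limma adjusted p = 0.851), and -0.23 without control 1 (limma adjusted p = 0.624). At so low a level the fold depended on the pseudocount, with -1.19 at 0.1 and -0.29 at 1. The ratio of reads, I3 against control, was 0.197 (95% exact binomial interval 0.0846 to 0.408), and 0.394 without control 1 (0.152 to 0.960). RAMP2, a receptor part for adrenomedullin, reached 0.670 FPKM and was under the minimum, as was its relative RAMP1, which reached 0.728 FPKM.

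ANKRD37 (ENSG00000186352, chr4:185396021-185400628, plus strand), an ankyrin repeat protein, was at 0.351, 0.131 and 0.244 FPKM in the controls and 0.348, 0.305 and 0.192 FPKM with I3, from 16, 6 and 11 reads and from 16, 14 and 9 reads. Control 1 and I3 1 had the same number of reads, so the first place of control 1 rests on its slightly lower depth. In the fit with no minimum its log2 fold change was 0.08 (SE 0.145), with 0.19 without control 1 and -0.03 without control 2. In this gene 35.2% of the exon bases lie opposite exons of UFSP2, which had a mean of 5.15 FPKM, and reads of both strands cannot be told apart if counting took no account of strand.

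**Figure D2:**
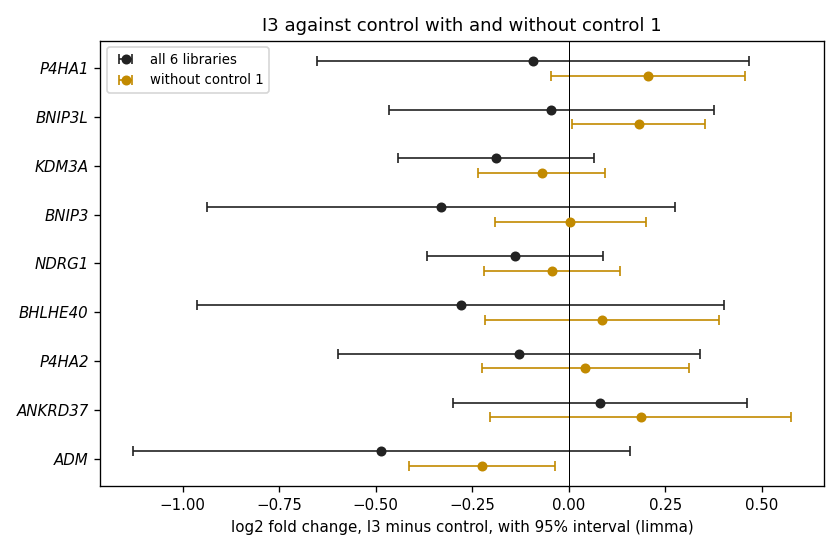
Log2 fold change of I3 against control on log2(FPKM + 0.5) for each gene, with limma's 95% interval, from all 6 libraries (black) and without control 1 (yellow). P4HA2, ANKRD37 and ADM come from the fit with no minimum FPKM. With all libraries each interval includes 0. Without control 1 the intervals of BNIP3L (0.0088 to 0.35) and ADM (-0.42 to -0.037) do not include it, before adjustment over genes, and the values of P4HA1, BNIP3L, BNIP3, BHLHE40 and P4HA2 move across 0.

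As a group, no member was called between I3 and control, and the lean of the members towards lower levels rested on control 1. Of the 9 genes, 6 passed the minimum and entered the fit, and 0 of these were called at an adjusted p under 0.05 with a log2 fold change of at least 0.58 (limma). Over the 12960 genes tested 0.0% were called higher and 0.0% lower. At an unadjusted p under 0.05 the counts were 0 of 6 members and 639 of 12960 genes (4.93%), and with the fold also required 0.756% of all genes were higher and 0.648% lower. The groups did not overlap in 0 of the 6 members tested, against 9.7% of all genes tested. All 6 were lower with I3 (45.8% of all genes tested were lower), with a median log2 fold change of -0.16 against 0.011 over all genes tested. Without control 1, 2 of 6 were lower and the median was 0.045, against 0.018 over all genes.

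For each of the 6 members tested, control 1 differed from the other controls by more than the groups differed from each other. Among the I3 libraries no single library did so for BNIP3, BHLHE40, KDM3A or NDRG1. For P4HA1 it was so (-0.30 in I3 2, against -0.09 between the groups), and for BNIP3L too (-0.13 in I3 3, against -0.05). As control 1 is 1 of the 3 controls, its excess enters the group difference at a reduced size. That the excess of control 1 is the larger is therefore no separate finding. For each library the level of a gene on log2(FPKM + 0.5) was set against the mean of the other libraries of its group. Control 1 exceeded its group by at least 0.58 for 4 of 6 members tested, namely BHLHE40 by 1.1, BNIP3 by 1.00, P4HA1 by 0.89 and BNIP3L by 0.68, while KDM3A (0.36) and NDRG1 (0.29) fell short. The same excess was found in 4.46% of all genes tested and in 0.964% of those with a mean of at least 5 FPKM. The members were chosen with earlier results of these data known, so that this contrast is a description only. The median over the 6 members was 0.79 in control 1, where 90% of all genes tested lay between -0.34 and 0.55. In control 2 and 3, which are set against a mean that holds control 1, it was -0.36 and -0.39, and in I3 1, 2 and 3 it was 0.064, -0.011 and 0.010. In each of the 5 other libraries 0 of 6 members exceeded their group by 0.58, against 2.05% and 1.75% of all genes tested in control 2 and 3, and 2.99%, 2.32% and 2.18% in I3 1, 2 and 3. With 1 library on one side there is no test of this difference.

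In reads, control 1 had 2.56 times the mean of the other controls for BHLHE40 (95% exact binomial interval 2.10 to 3.12), 2.09 times for BNIP3 (1.92 to 2.27) and 1.88 times for P4HA1 (1.77 to 2.00). The ratio was 2.08 for P4HA2 (1.56 to 2.77) and 4.0 for ADM (2.08 to 7.99), both under the minimum. The others had smaller ratios, with 1.64 for BNIP3L (1.5 to 1.79), 1.30 for KDM3A (1.23 to 1.36) and 1.24 for NDRG1 (1.15 to 1.33). For ANKRD37 the ratio of 1.88 had an interval that included 1 (0.889 to 3.96).

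Control 1 was the highest of all 6 libraries for 9 of 9 members and for 6 of the 6 tested. It was highest for 22.9% of all genes tested, a contrast that describes members chosen with earlier results of these data known. The place of the lowest library was spread, with control 2 lowest for 3 members, control 3 and I3 1 for 2 each, and I3 2 and I3 3 for 1 each. After removal of the GC trend the median excess of the 6 members in control 1 was 0.65, with 4 of 6 at 0.58 or more, and with median-of-ratios scaling it was 0.74. By member the values with the GC trend removed were 1.13 for BHLHE40, 1.06 for BNIP3, 0.70 for P4HA1, 0.60 for BNIP3L, 0.36 for NDRG1 and 0.23 for KDM3A.

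**Figure D3:**
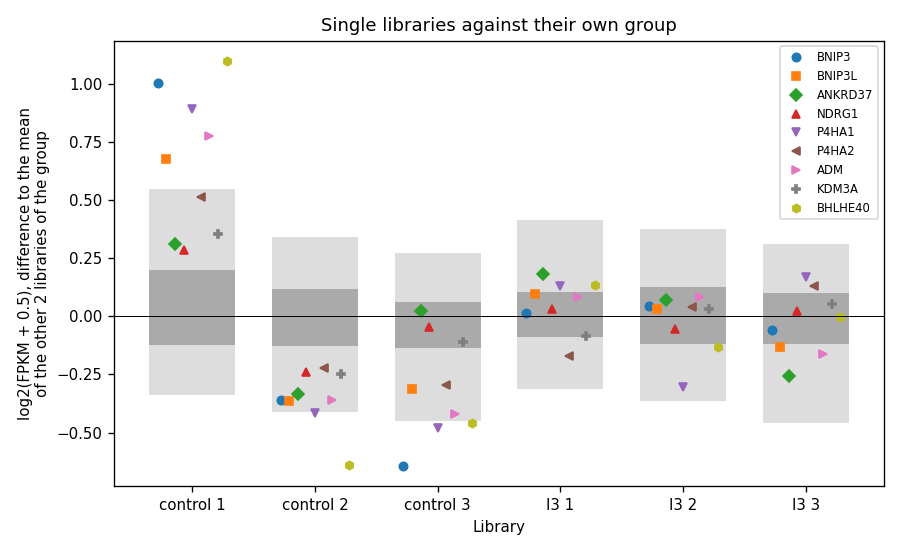
Level of each gene on log2(FPKM + 0.5) minus the mean of the other 2 libraries of the same group, by library. Symbols are the 9 genes, the dark band holds the middle 50% and the light band the middle 90% of the 12960 genes tested. BHLHE40, BNIP3, P4HA1, ADM and BNIP3L lie above the light band in control 1, and no gene lies above it in another library.

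The spread within the controls restates the distance of control 1 in another measure, beside which that of the I3 libraries is given. The SD of log2(FPKM + 0.5) among the controls was 0.18 to 0.64 for the 6 members tested, against a median of 0.121 over all genes tested. Among the I3 libraries it was 0.031 to 0.175 for the members, against a median of 0.107. For each of the 6 members tested the SD of the controls was larger than the size of the difference between the groups. It was largest for BNIP3 and BHLHE40 (0.59 and 0.64). The margin was narrow for KDM3A (SD 0.211, difference -0.189) and NDRG1 (SD 0.178, difference -0.140). Control 1 enters both the SD and the difference, so that this order is no separate finding.

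Other genes of the oxygen response were split in control 1. Of the other HIF targets outside glycolysis, 24 of 35 in the table were tested, and control 1 was the highest of 6 libraries for 18 of them, with a median difference of 0.27 and 5 past 0.58. With the GC trend removed the median was 0.25 and 3 were past 0.58, with INSIG2 (0.57) and PLOD2 (0.50) under it. The largest was DDIT4, an inhibitor of mTORC1 signalling, at 10.3, 2.62 and 3.08 FPKM in the controls and 3.16, 2.40 and 2.56 FPKM with I3. CXCR4, the chemokine receptor, exceeded its group by 0.91, INSIG2, which retains the sterol sensor in the endoplasmic reticulum, by 0.86, PLOD2, a collagen lysyl hydroxylase, by 0.83 and STC2, a secreted glycoprotein, by 0.70. VEGFA, the angiogenic growth factor, was at 5.69, 4.28 and 4.81 FPKM in the controls and 5.64, 4.79 and 4.18 FPKM with I3, so that I3 1 was level with control 1. TFRC, the transferrin receptor, was lowest in control 1 at 114 FPKM. CA9, EGLN3 and EDN1 were at 0.034 FPKM or less in each library.

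The 20 glycolytic genes tested had a median difference of 0.074 in control 1, with 13 of 20 highest there and 3 past 0.58. The median was 0.13 with the GC trend removed, again with 3 past 0.58, and 0.031 with median-of-ratios scaling. Those 3 were PFKFB4, which sets the level of fructose 2,6-bisphosphate, by 1.94, ALDOC, an aldolase, by 1.22 and SLC16A3, the lactate exporter, by 0.97. The abundant enzymes were not among them, with GAPDH at 940 FPKM in control 1 and 981 and 987 FPKM in control 2 and 3, and ENO1 at 489 FPKM against 513 and 498 FPKM. PFKFB4 was at 7.35, 1.77 and 1.34 FPKM in the controls and 1.94, 1.86 and 1.49 FPKM with I3, with control 1 apart and the other 5 libraries close together.

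The HIF factors and their regulators stayed nearer to their group, with a median of 0.044 over 7 tested (0.026 with the GC trend removed and 0.0018 with median-of-ratios scaling), 2 of 7 highest in control 1 and 0 past 0.58. HIF1A, the alpha subunit, was at 15.3, 12.8 and 12.7 FPKM in the controls and 14.1, 13.1 and 15.2 FPKM with I3, so that I3 3 was level with control 1. EGLN1, the main oxygen sensing hydroxylase and itself a HIF target, was at 22.0 FPKM in control 1 and 15.2 to 17.3 FPKM elsewhere. The 13 paralogues and partners tested had a median of -0.022 with 3 of 13 highest, and the 8 markers of Kasumi-1 had 0.032 with 1 of 8 highest.

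**Figure D4:**
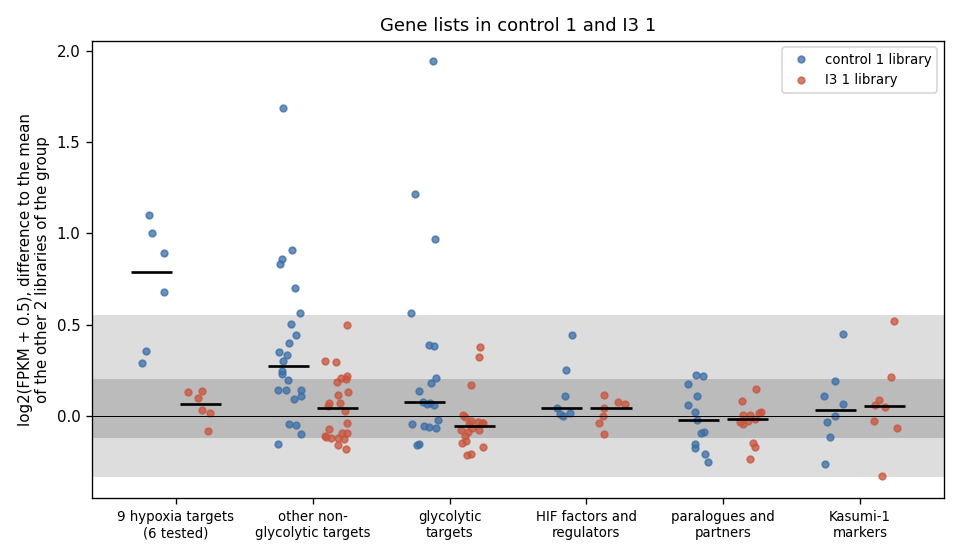
Level on log2(FPKM + 0.5) minus the mean of the other 2 libraries of the group, in control 1 (blue) and I3 1 (red), for the tested genes of each list. Points are genes, black lines are medians, and the bands hold the middle 50% and 90% of all genes tested in control 1. In control 1 the medians were 0.79 for the members, 0.27 for the other targets outside glycolysis and 0.074 for the glycolytic targets, and in I3 1 the median of the members was 0.064.

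Between I3 and control none of these lists had a called gene. The other targets outside glycolysis had a median log2 fold change of -0.022 with 16 of 24 lower, and 0.033 with 8 of 24 lower without control 1. The glycolytic targets were lower in 19 of 20, with a median of -0.10, and in 15 of 20 with a median of -0.068 without control 1. DDIT4 had a log2 fold change of -0.63 and PFKFB4 of -0.50 (limma adjusted p = 0.998 for both), and their groups overlapped. Without control 1 these values were -0.07 for DDIT4 and 0.14 for PFKFB4. By smallest p the first genes of the lists were CITED2 (-0.18), PLOD1 (-0.14) and KDM4B (-0.16) outside glycolysis, PFKFB3 (-0.26), ENO1 (-0.11) and GPI (-0.11) within it, VHL (0.11) and ARNT (0.12) among the regulators and BCL2L1 (-0.16) among the partners, none of which passed the test (limma adjusted p = 0.998 for each). Without control 1 PFKFB3 was at -0.13, KDM4B at -0.10 and BCL2L1 at -0.10. The gene of these lists with the smallest p was SIAH2, a ubiquitin ligase that acts on the prolyl hydroxylases, at 16.9, 17.3 and 16.4 FPKM in the controls and 13.1, 12.9 and 11.9 FPKM with I3. Its groups did not overlap and control 1 was inside its group, but its log2 fold change of -0.41 did not pass the test (limma adjusted p = 0.428), with the same -0.41 without control 1 (limma adjusted p = 0.319).

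By level the members fell into 4 steps. P4HA1 was above all others in every library, followed by BNIP3L, KDM3A, BNIP3 and NDRG1 at 5.47 to 12.6 FPKM, whose neighbours kept their order in 4 to 5 of 6 libraries and whose ranges overlapped. BHLHE40 was next at 1.29 to 3.50 FPKM. P4HA2, ANKRD37 and ADM, all under 0.7 FPKM, overlapped each other.

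The genes whose levels across the 6 libraries were most like the mean standardised level of the members were GLT8D1 (Pearson r = 0.987), TMEM59 (0.984), GLRX3 (0.984), RPL7P9 (0.978) and CFDP1 (0.975), out of 6582 genes compared. Each was highest in control 1, as GLT8D1 at 13.1 FPKM against 10.4 to 11.1 FPKM, so that the likeness rests on 1 library. The excess of control 1 over the other controls was 0.13 (RPL7P9) to 0.29 (GLT8D1), against a median of 0.79 for the members tested. The likeness is thus one of shape and not of size. Reads that copies of the members could share were few, with 150 reads in all in 11 pseudogenes, most of them copies of BNIP3.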

How the data were processed

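RNA from 3 control and 3 I3 libraries of Kasumi-1 was sequenced. To make the FPKM values, the authors' processing notes name Trimmomatic, HISAT2, Cufflinks, HTSeq and the build hg38, with their roles, tool versions and annotation release not given in the sources used here. Deposited FPKM values were used as they stand. The study's text gives another incubation time in places, and the labels' 48 h was used. FPKM times the GENCODE 29 exon length gave whole reads (tolerance 0.1) in all 6 libraries for 95.8% of 26519 genes, from which reads and depth were derived. Genes with a mean of at least 0.5 FPKM (12960) were tested with limma 3.58.1 (R 4.3.3) on log2(FPKM + 0.5) with a trended prior and Benjamini-Hochberg adjustment, and the 3 members under the minimum were taken from a fit without it. The fit was tested on simulated data. Intervals of read ratios are exact binomial at 95% and cover counting error only. The GC trend was removed by lowess (span 0.3). Alternatives were pseudocounts of 0.1 and 1, no minimum and a minimum of 5 FPKM, TPM, median-of-ratios scaling, voom on the reads, a replicate block and leaving out each library. The members, the gene lists and the alternatives were chosen with earlier results of these data known. The genes named are the members, their paralogues and partners, those of smallest p in each list and the 5 most like the members (mean of at least 5 FPKM, in no list). Others, such as DDIT4 and PFKFB4, were named after their values were seen. Promoter sequences are RefSeq's.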

Additional observations from a re-analysis of the deposited data

How the results depend on the processing

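The depth of 17500320 to 18193373 reads limits the low members most, with 45 reads of ADM and 33 of ANKRD37 over the 3 controls. Under every alternative run 0 members were called. Before adjustment the limma p of KDM3A was 0.025 with the GC trend removed (log2 fold change -0.23) and 0.043 without control 2. Without control 1 the limma p was 0.042 for BNIP3L and 0.030 for ADM, which is under the minimum. The count of 0 of 6 members at an unadjusted p under 0.05 thus depended on the setting. With single libraries left out, the log2 fold changes ranged from -0.55 to 0.0039 for BNIP3, -0.17 to 0.18 for BNIP3L, -0.25 to 0.20 for P4HA1, -0.23 to 0.043 for P4HA2, -0.49 to 0.086 for BHLHE40 and -0.031 to 0.19 for ANKRD37. The signs turned without control 1 for the first 5, without I3 2 also for P4HA1 (0.0074) and without control 2 for ANKRD37, and the other 114 values of single members kept their sign. ADM moved from -0.49 to -1.19 with a pseudocount of 0.1, -0.29 with 1 and -1.02 with TPM. The median over the 6 members ranged from -0.25 to 0.045 with single libraries left out, highest without control 1. The median difference of I3 2 moved from -0.011 to -0.077 with the GC trend removed. The number of members with groups that do not overlap was 1, beside 9.7% of all genes tested. It rose to 2 with median-of-ratios scaling, and ranged from 1 to 3 with single libraries left out, with 3 without control 2. Smaller groups separate more easily, and the share over all genes is not given here for these settings. The rise is therefore no result about the members. Among all genes 0 were called, against 3 higher and 2 lower with no minimum, and 0 to 1 higher and 0 to 2 lower with single libraries left out. Before adjustment 98 genes were higher and 84 lower (p under 0.05 and the fold), against 229 and 162 with TPM, 6 and 24 with a minimum of 5 FPKM, 62 higher with a pseudocount of 1, 97 and 100 with voom, and 91 to 146 higher and 76 to 130 lower with single libraries left out. With the replicate block the counts were 109 and 91, with 0 called after adjustment. The labels do not say whether same-numbered libraries were paired. Such libraries deviated with correlations of 0.063, 0.151 and -0.024, where all pairs of a control and an I3 library ranged from -0.172 to 0.151. These correlations cannot decide whether the libraries were paired, since the GC trends of single libraries also enter them. The block changed no call.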

Other observations

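Among 8534 protein-coding genes with a mean of at least 2 FPKM, the 15 with the largest excess in a library over its group were listed for each library, a choice made after the values were seen. In control 1, 8 of these 15 were in the lists of oxygen response genes above, with the members BNIP3 and P4HA1 among them. In each of the other libraries 0 of 15 were. The lists were chosen with earlier results of these data known, and their share of the 8534 genes is not given here. The count is thus a description and no independent support. The other genes of control 1 included interferon-induced IFI6, at 17.4, 3.57 and 4.82 FPKM in the controls and 7.202, 5.07 and 4.89 FPKM with I3. ISG15, the ubiquitin-like modifier of the interferon response, was at 5.71, 3.76 and 2.18 FPKM and at 2.86, 3.94 and 3.68 FPKM. STARD4, a carrier of cholesterol, was at 15.6, 6.63 and 6.51 FPKM in the controls and 11.1, 7.04 and 10.6 FPKM with I3, so that I3 1 and I3 3 were high as well. MNDA, a nuclear antigen of myeloid cells, was also high in control 1, I3 1 and I3 3, at 17.4, 8.79 and 9.88 FPKM and at 15.9, 8.05 and 12.1 FPKM.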
